A study of Homo sapiens with 12 samples.

Results

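The genes described here are 48 genes of mitosis and the G2/M transition, listed by symbol and found by the Ensembl ID that carries each symbol. All 48 were found among 20286 genes in the table, and all 48 passed the filter on low counts that left 13512 genes to test. They were measured in HK-2, an immortalised line of human kidney proximal tubule epithelium whose genotype the labels give as WT. Cultures in DMEM received recombinant S100A8, recombinant S100A9, recombinant S100A8/S100A9, each at 5 mg/mL in the labels' own unit, or a matching amount of PBS as control. The labels give 48 h for every group, and each of the 4 groups holds 3 libraries of poly(A)-selected RNA. S100A8 and S100A9 are calcium-binding proteins released by myeloid cells, and together they form calprotectin. The comparisons ask how the transcripts of dividing cells stood after each protein, and whether these genes moved together by library, by replicate number or by treatment.

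Cells enter mitosis when CDK1 bound to a B-type cyclin is switched on by CDC25 phosphatases, and they leave it when the anaphase-promoting complex destroys that cyclin and securin. Most of these genes are transcribed late in the cell cycle and kept low in resting cells by the DREAM complex, which contacts promoters at a short element called the CHR. MYBL2 and FOXM1 take part in their activation in G2, and NF-Y binds CCAAT boxes in many of the same promoters. In kidney, proximal tubule cells divide little at rest and re-enter the cycle after injury, whereas HK-2 cells cycle in culture.

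The promoters of 6 genes are printed because each had the smallest unadjusted p of the 48 in 1 of the 6 comparisons between groups. The windows are from RefSeq on GRCh38.p14 and run from 250 bases before to 50 bases after a transcript start. PTTG1 lies at chr5:160421605-160421904 on the plus strand, CKAP2L at chr2:112764560-112764859 on the minus strand, and DLGAP5 at chr14:55191536-55191835 on the minus strand. CCNB1 lies at chr5:69166900-69167199 on the plus strand, ASPM at chr1:197146620-197146919 on the minus strand, and CDK1 at chr10:60778081-60778380 on the plus strand. For PTTG1 and CDK1 the first of 2 windows in the table is shown. Capitals mark CCAAT or its complement ATTGG, and the CHR letters TTTGAA or TTCGAA with the complement TTCAAA.
PTTG1: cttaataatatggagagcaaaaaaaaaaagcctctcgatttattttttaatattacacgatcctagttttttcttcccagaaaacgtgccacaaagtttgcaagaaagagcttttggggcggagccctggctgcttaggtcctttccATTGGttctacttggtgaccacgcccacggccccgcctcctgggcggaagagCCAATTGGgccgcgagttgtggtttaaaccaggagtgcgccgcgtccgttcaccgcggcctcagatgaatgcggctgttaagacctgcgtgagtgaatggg
CKAP2L: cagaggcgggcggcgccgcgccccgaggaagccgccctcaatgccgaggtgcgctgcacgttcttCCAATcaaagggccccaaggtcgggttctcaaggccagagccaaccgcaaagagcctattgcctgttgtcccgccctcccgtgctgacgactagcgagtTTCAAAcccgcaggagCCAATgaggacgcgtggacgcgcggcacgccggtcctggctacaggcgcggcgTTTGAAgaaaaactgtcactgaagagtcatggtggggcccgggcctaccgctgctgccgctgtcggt
DLGAP5: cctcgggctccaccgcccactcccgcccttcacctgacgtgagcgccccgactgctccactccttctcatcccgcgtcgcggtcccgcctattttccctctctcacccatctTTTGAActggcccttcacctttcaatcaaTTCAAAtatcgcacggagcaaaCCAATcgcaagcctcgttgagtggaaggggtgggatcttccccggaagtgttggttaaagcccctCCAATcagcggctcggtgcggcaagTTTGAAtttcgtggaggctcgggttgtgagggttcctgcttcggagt
CCNB1: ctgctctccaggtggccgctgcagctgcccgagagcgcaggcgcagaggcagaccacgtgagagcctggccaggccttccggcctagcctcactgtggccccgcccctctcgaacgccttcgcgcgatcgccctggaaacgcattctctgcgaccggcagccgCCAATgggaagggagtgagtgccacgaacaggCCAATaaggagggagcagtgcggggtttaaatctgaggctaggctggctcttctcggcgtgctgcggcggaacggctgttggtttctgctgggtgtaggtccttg
ASPM: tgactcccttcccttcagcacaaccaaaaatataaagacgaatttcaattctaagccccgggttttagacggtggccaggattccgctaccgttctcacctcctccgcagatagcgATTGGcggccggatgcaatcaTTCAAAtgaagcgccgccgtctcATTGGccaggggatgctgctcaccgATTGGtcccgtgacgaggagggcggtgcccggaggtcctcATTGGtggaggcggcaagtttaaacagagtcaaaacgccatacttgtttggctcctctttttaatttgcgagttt
CDK1: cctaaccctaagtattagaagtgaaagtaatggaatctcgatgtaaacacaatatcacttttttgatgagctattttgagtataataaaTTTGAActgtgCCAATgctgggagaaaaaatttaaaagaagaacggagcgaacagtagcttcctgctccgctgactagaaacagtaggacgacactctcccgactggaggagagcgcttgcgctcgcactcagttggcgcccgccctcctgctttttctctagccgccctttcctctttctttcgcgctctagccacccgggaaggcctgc

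Of the 48 genes, 41 matched a promoter in the RefSeq table by symbol, all except AURKA, BIRC5, BUB3, FAM83D, TPX2, TTK and UBE2C. CHR letters on either strand were present for 32 of the 41 genes (78.0%, 95% Wilson interval 63.3 to 88.0) and for 19.5% of all 27305 genes with windows of this length. CCAAT on either strand was present for 33 of 41 (80.5%, 66.0 to 89.8) against 39.7%, and both motifs for 27 of 41 (65.9%, 50.5 to 78.4) against 7.85%. In 2 of the 41 genes a CCAAT match and a CHR match shared bases. CKAP2L and DLGAP5 carry both motifs more than once in the windows above, ASPM carries 4 CCAAT matches and 1 CHR match, and CDK1 carries 1 of each. The CCNB1 window and the PTTG1 window shown hold CCAAT and none of the CHR letters searched. Other forms of the CHR were not searched. Among 35 other mitotic genes with a window, CHR letters were present for 26 (74.3%), CCAAT for 30 (85.7%) and both for 24 (68.6%), each within the intervals above. Among S phase genes with a window, CHR letters were present for 3 of 33 (9.09%). A match describes letters in these windows and not a bound site.

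Library totals ran from 15882193 to 20748334 counts, and the lowest count of any of the 48 genes in any library was 185, for CDC25C. Levels are given as CPM, counts per library size scaled by TMM. The labels do not say that the 3 libraries of a group are separate cultures, so the spread that the p-values rest on may be a technical one. Counts of libraries of 1 group differed beyond sampling noise in every pair (chi-square per degree of freedom 2.35 to 5.38). Of 18 tubule epithelial markers 12 exceeded 1 CPM on average, against 2 of 11 leukocyte markers (FCGR3A and MS4A1 were at 0 in every library), 2 of 6 endothelial and 4 of 8 fibroblast markers (COL1A2 at 0). Summed over the tubule markers, control libraries held 2540.4 to 2550.3 CPM and S100A9 libraries 2463 to 2531 CPM, below the S100A8 libraries (2553 to 2569.7) and the S100A8/S100A9 libraries (2566 to 2723), and the part of this order in the results below was not tested. Genes encoded by mitochondrial DNA took 5.69% to 6.45% of counts.

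Per length, 45 of the 48 genes stood above the median tested gene in control cells, and CENPE, CDC25C and KIF15 below it. Their median level in control libraries was 28.31 FPKM, a unit scaled for gene length and depth, against 10.78 FPKM over all tested genes. TPX2, which nucleates spindle microtubules and activates Aurora A, was highest at 124 ± 2.11 FPKM (SD, n = 3). UBE2C, the ubiquitin-conjugating enzyme of the anaphase-promoting complex, followed at 106 ± 1.14, and TOP2A, the topoisomerase that untangles sister chromatids, at 93.5 ± 0.68. KIF15, a spindle kinesin, was lowest at 6.64 ± 0.16 FPKM, next to CDC25C at 7.14 ± 1.01, a pair whose difference was within the SD of CDC25C. CENPE, a kinetochore kinesin, stood at 9.03 ± 0.81 and MKI67, which encodes the proliferation marker Ki-67, at 48.0 ± 0.82.

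The 48 genes stood higher in the S100A8 and S100A8/S100A9 libraries than in the control and S100A9 libraries. Their summed level was 5869, 5912 and 5698 CPM in control libraries 1 to 3, and 5916, 5886 and 5806 CPM after S100A9. After S100A8 it was 6120, 6305 and 6086 CPM, and after S100A8/S100A9 it was 6146, 6173 and 6125 CPM. The 6 libraries that received S100A8 or S100A8/S100A9 all lay above the other 6, with no overlap, while control and S100A9 overlapped. As a share of all counts the 48 genes took 0.572% to 0.594% in control and S100A9 libraries and 0.609% to 0.633% in the rest. In bulk RNA, more cells in G2 and mitosis and more RNA of these genes per cell cannot be told apart.

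**Figure D1:**
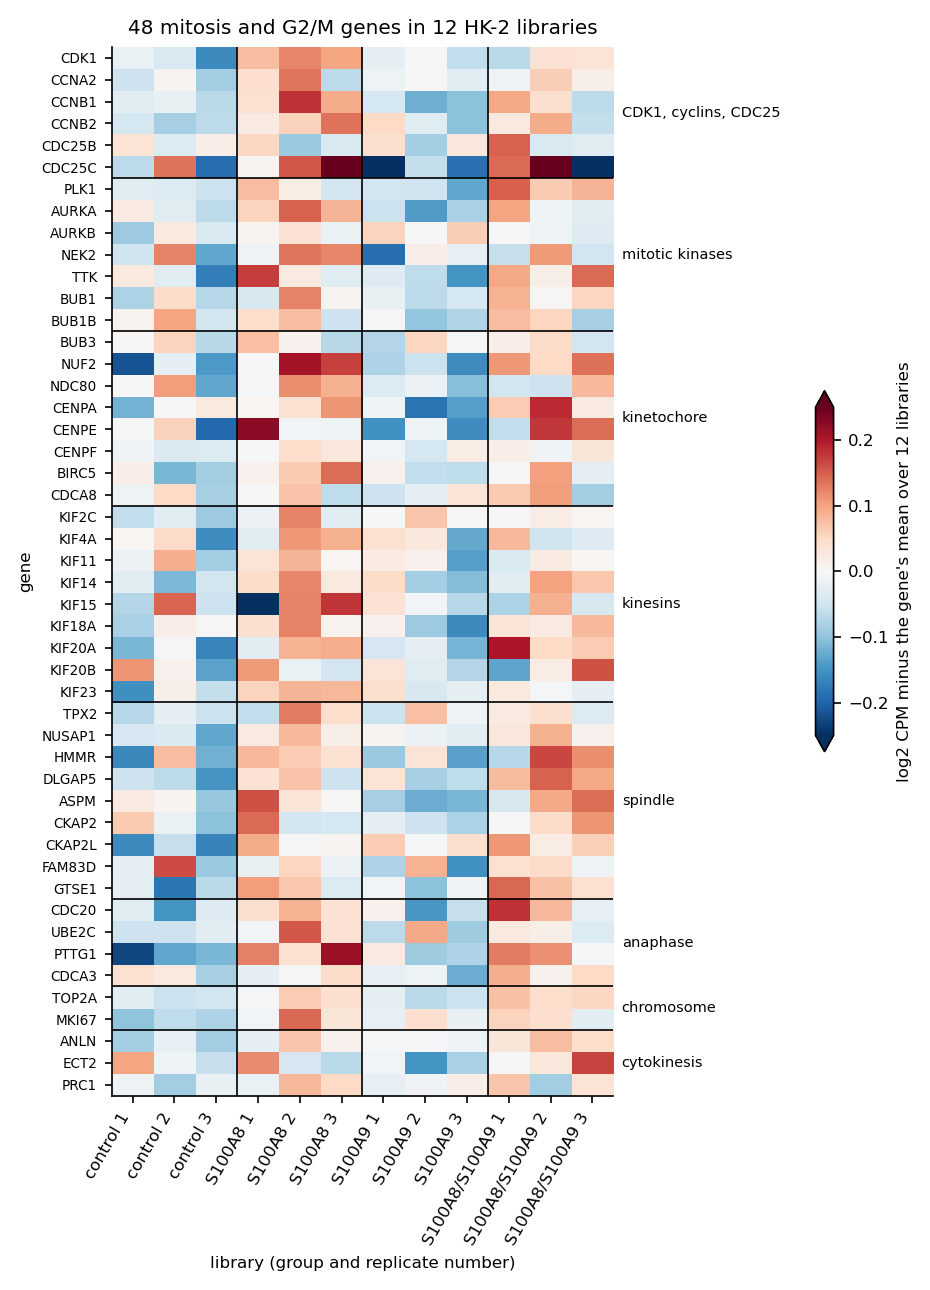
Each row is 1 of the 48 genes, ordered by role, and each column is 1 of 12 libraries; colour gives log2 CPM minus the gene's own mean over the 12 libraries, from blue (lower) to red (higher), with the scale ending at 0.25 either side. Control 3 and S100A9 3 are mostly blue, with 2 and 7 of 48 genes above their mean, and S100A8 2 is mostly red, with 42.

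Counted gene by gene, control libraries 1 to 3 had 12, 20 and 2 of 48 genes above their own mean over the 12 libraries. After S100A9 the counts were 17, 12 and 7. They were 31, 42 and 32 after S100A8 and 36, 40 and 28 after S100A8/S100A9. Over all tested genes the share above their mean was 49.5% to 51.6% in every library. The median deviation of the 48 genes was −0.043 ± 0.035 on the log2 scale in control (SD over 3 libraries), −0.040 ± 0.030 after S100A9, 0.043 ± 0.027 after S100A8 and 0.032 ± 0.014 after S100A8/S100A9. Control 3 held the lowest value of 12 for 14 genes, and S100A8 2 the highest for 18. The highest group mean was that of S100A8 for 25 genes, S100A8/S100A9 for 22, S100A9 for 1 and control for 0. The lowest group mean was that of control for 25 genes, S100A9 for 22 and S100A8 for 1. For these counts of lowest and highest libraries and group means, shares of all tested genes are not given.

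**Figure D2:**
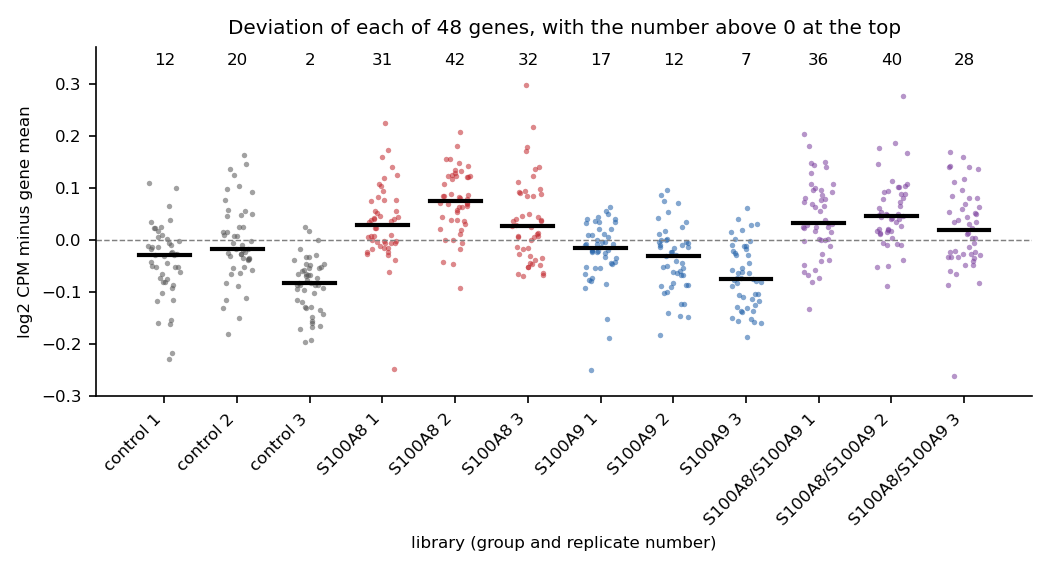
Points are the 48 genes in each of 12 libraries, with the log2 CPM minus the gene's mean over the libraries on the vertical axis, bars at the library medians and the number of genes above 0 printed at the top. Medians are above 0 in the 6 libraries of S100A8 and S100A8/S100A9 (0.018 to 0.074) and below 0 in the 6 of control and S100A9 (−0.083 to −0.016).

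Between S100A8 and control, 0 of the 48 genes passed the threshold in edgeR (quasi-likelihood test, Benjamini-Hochberg over 13512 genes), where 1 gene in the whole table passed (0.0074%). Of the 48, 45 lay above 0 against 50.2% of all tested genes, with a median log2 difference of 0.089, or 6.4%, against 0 for all tested genes. At an unadjusted p under 0.05, 19 were higher and none lower, against 1.74% of all genes higher. DESeq2 and limma likewise passed 0 of the 48, with 16 and 11 at an unadjusted p under 0.05. Here and below, shares of all genes at that level are given for edgeR with all 12 libraries only. Counts of the 48 at that level from DESeq2, limma or fits without a library have no such share beside them. For 16 genes every S100A8 library exceeded every control library, against 4.41% of all genes. Without control 3 the count above 0 was 38, and without S100A8 2 the median was 0.066 and 8 genes had an unadjusted p under 0.05.

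After S100A9 the 48 genes were split, with 25 above and 23 below control, against 49.9% of all tested genes above, and a median log2 difference of 0.002, while 0.148% of all genes passed. Again 0 of the 48 passed edgeR's test, 2 had an unadjusted p under 0.05 (CKAP2L and MKI67, both higher, against 3.23% of all genes higher), and DESeq2 and limma each passed 0, with 2 at that level. The groups did not overlap for 6 genes, all higher, against 6.25% of all genes: CKAP2L, MKI67, KIF2C, PTTG1, ANLN and NUSAP1. The largest differences below 0 were −0.13 for CDC25C, −0.091 for ECT2 and −0.086 for ASPM.

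The S100A8/S100A9 libraries stood with those of S100A8: 45 of 48 genes lay above control, against 49.7% of all tested genes, with a median log2 difference of 0.069, or 4.9%. In edgeR's test 0 of the 48 passed, as did 0 of all 13512 genes (0%), and 15 of the 48 had an unadjusted p under 0.05, all higher, against 2.65% of all genes. DESeq2 and limma passed 0 of the 48, with 13 and 9 at that level. The groups did not overlap for 16 genes, all higher, against 5.3%. Without control 3 the counts were 39 above 0 and 11 at an unadjusted p under 0.05. All 3 of these comparisons share the same 3 control libraries.

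**Figure D3:**
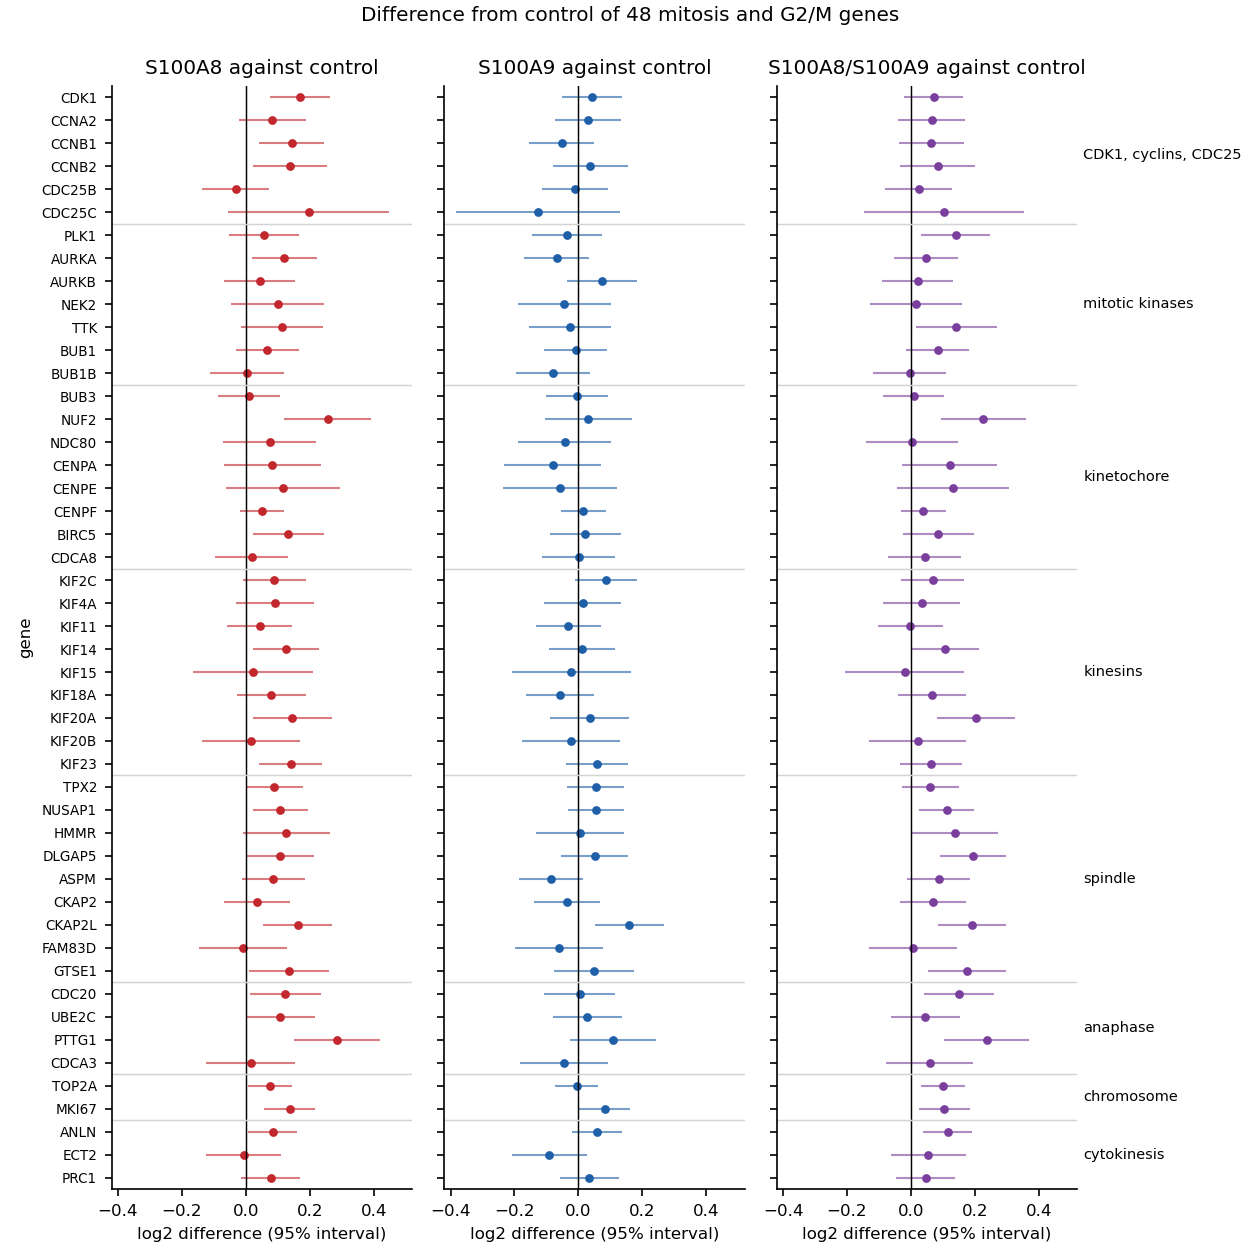
Points are the log2 difference from control for each of the 48 genes, by role from top to bottom, with bars for the 95% interval of the edgeR fit, in panels for S100A8, S100A9 and S100A8/S100A9. Intervals clear 0 for 19, 2 and 15 genes in the 3 panels, and the widest belong to CDC25C.

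Between treated groups, the 3 comparisons share their treated libraries with each other and with those above. S100A9 was below S100A8 for 46 of 48 genes, while 50.2% of all tested genes were above it, with a median log2 difference of −0.082, or −5.6%. In edgeR's test 0 of the 48 passed, against 0.185% of all genes, and 14 had an unadjusted p under 0.05, all lower (background 3.28%). DESeq2 and limma passed 0, with 12 and 11 at that level. The groups did not overlap for 15 genes, all lower, against 6.09%. Without S100A9 3, 7 genes had an unadjusted p under 0.05, and without S100A8 2, 9 did.

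S100A8/S100A9 was above S100A9 for 46 of 48 genes, against 49.4% of all tested genes, with a median of 0.066, or 4.7%. Again 0 of the 48 passed edgeR's test, against 0.252% of all genes, and 16 had an unadjusted p under 0.05, all higher (background 3.28%). DESeq2 and limma passed 0, with 14 and 9 at that level. The groups did not overlap for 17 genes, all higher, against 5.94%. S100A8/S100A9 against S100A8 gave 22 genes above and 26 below 0, against 49.3% above 0 over all tested genes, with a median of −0.009. There edgeR passed 0 of the 48 (0% of all genes), and 1 gene, CDK1, had an unadjusted p under 0.05, lower (background 2.3%), against 0 in DESeq2 and 1 in limma. The groups did not overlap for 1 gene higher (DLGAP5) and 2 lower (CDK1 and KIF23), against 4.45% and 4.55% of all genes. Without S100A8 2 the median turned to 0.012, with 19 genes below 0. The median width of the 95% interval either side of a gene's difference was 0.11 (range 0.069 to 0.25), which is wider than each of these medians. That width is for 1 gene and does not measure the uncertainty of a median over the 48, which was not estimated. A p that misses the threshold does not show that levels were equal.

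CDK1, the kinase that drives entry into mitosis, was highest after S100A8. It was at 125, 123 and 113 CPM in control libraries 1 to 3, 134, 138 and 136 after S100A8, 125, 127 and 121 after S100A9 and 121, 129.9 and 129.7 after S100A8/S100A9. All 3 S100A8 libraries exceeded the other 9. The log2 difference was 0.17 (95% interval 0.077 to 0.26, adjusted p = 1) from control, and −0.13 (95% interval −0.22 to −0.034, adjusted p = 0.48) for S100A9 against S100A8. For S100A8/S100A9 against S100A8 it was −0.10 (95% interval −0.19 to −0.006, adjusted p = 0.98).

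CCNB1, the cyclin B1 partner of CDK1, was at 91.7, 92.4 and 89.2 CPM in control libraries 1 to 3, 96.02, 106 and 99.8 after S100A8, 90.7, 85.9 and 87.1 after S100A9 and 99.96, 96.1 and 89.4 after S100A8/S100A9. S100A8 lay above control and S100A9 with no overlap, and S100A8/S100A9 spread across that range. Its log2 difference was 0.14 (95% interval 0.042 to 0.25, adjusted p = 1) for S100A8 and −0.052 for S100A9 against control. S100A9 against S100A8 gave −0.20 (95% interval −0.30 to −0.10, adjusted p = 0.146). CCNB2, the cyclin B2 gene, had 50.3 ± 0.677 CPM in control and 55.3 ± 2.25 after S100A8 (SD, n = 3), with no overlap, and a log2 difference of 0.14. CCNA2, which encodes cyclin A2, differed by 0.083, 0.030 and 0.065 from control in the S100A8, S100A9 and S100A8/S100A9 groups, with overlap in each.

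CDC25B and CDC25C encode phosphatases that release CDK1 from inhibition. CDC25B was at 148, 141 and 146 CPM in control libraries 1 to 3, 149.7, 136 and 141 after S100A8, 149, 136 and 147 after S100A9 and 160.1, 141 and 142 after S100A8/S100A9. Its groups overlapped in all 6 comparisons, and replicate number 1 was the highest library of every group. CDC25C had 12.6 ± 1.47 CPM in control, 14.4 ± 1.45 after S100A8, 11.5 ± 0.780 after S100A9 and 13.5 ± 2.51 after S100A8/S100A9. The 95% interval for CDC25C ran from −0.055 to 0.45 for S100A8 against control. S100A9 was below S100A8 with no overlap, at −0.32 (95% interval −0.58 to −0.070, adjusted p = 0.55).

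PLK1, a kinase of centrosomes and mitotic entry, was at 51.5, 51.4 and 50.7 CPM in control libraries 1 to 3, 55.5, 53.3 and 50.95 after S100A8, 50.95, 50.8 and 48.1 after S100A9 and 58.4, 55.03 and 55.8 after S100A8/S100A9. The 3 S100A8/S100A9 libraries exceeded all control and S100A9 libraries. Its log2 difference was 0.14 (95% interval 0.032 to 0.25, adjusted p = 0.829) from control and 0.18 (95% interval 0.068 to 0.28, adjusted p = 0.349) from S100A9. AURKA, the Aurora A kinase of spindle poles, was at 80.6, 77.6 and 75.8 CPM in control libraries 1 to 3, 82.5, 87.8 and 84.1 after S100A8, 76.4, 71.9 and 74.95 after S100A9 and 84.97, 78.7 and 77.8 after S100A8/S100A9. S100A8 was above control and S100A9 with no overlap, and S100A8/S100A9 exceeded S100A9. For S100A9 against S100A8 the AURKA difference was −0.19 (95% interval −0.29 to −0.088, adjusted p = 0.172). AURKB, the kinase of the chromosomal passenger complex, was the only gene of the 48 besides CDC25B to lie above 0 in that comparison, at 0.030.

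Among the checkpoint kinases, TTK, which starts spindle checkpoint signalling, was at 58.5, 56.4 and 51.02 CPM in control libraries 1 to 3, 64.8, 58.3 and 56.2 after S100A8, 56.2, 54.99 and 51.8 after S100A9 and 61.4, 58.03 and 63.4 after S100A8/S100A9. S100A9 lay below S100A8 and below S100A8/S100A9 with no overlap, with −0.14 (95% interval −0.26 to −0.011, adjusted p = 0.694) in the first case. There the margin was as little as 56.15 against 56.23 CPM, for S100A9 1 and S100A8 3. BUB1B, whose product BubR1 inhibits the anaphase-promoting complex, was at 64.6, 68.7 and 62.1 CPM in control libraries 1 to 3, 66.2, 67.7 and 61.9 after S100A8, 63.99, 59.9 and 60.9 after S100A9 and 67.7, 66.6 and 60.6 after S100A8/S100A9. Its groups overlapped in all 6 comparisons. NEK2, a kinase that separates centrosomes, was at 44.6, 50.4 and 42.2 CPM in control libraries 1 to 3, 45.8, 50.7 and 50.3 after S100A8, 40.5, 46.8 and 45.5 after S100A9 and 44.4, 49.8 and 44.7 after S100A8/S100A9, also with overlap in all 6. BUB1, the other BUB kinase gene, differed by 0.067, −0.008 and 0.084 from control in the same order of groups.

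NUF2, a subunit of the Ndc80 complex that ties kinetochores to microtubules, was at 34.7, 39.6 and 36.5 CPM in control libraries 1 to 3, 40.2, 46.5 and 45.3 after S100A8, 38.1, 38.8 and 36.1 after S100A9 and 43.4, 41.7 and 44.3 after S100A8/S100A9. S100A8 and S100A8/S100A9 lay above control and above S100A9 with no overlap. The differences from control were 0.26 (95% interval 0.12 to 0.39, adjusted p = 1) for S100A8 and 0.23 (95% interval 0.093 to 0.36, adjusted p = 0.63) for S100A8/S100A9. Its partner NDC80 differed by 0.076 and 0.003 in those comparisons, with overlap. BUB3, a checkpoint protein that carries BUB1 and BubR1 to kinetochores, was at 148, 154 and 141 CPM in control libraries 1 to 3, 156, 149 and 141 after S100A8, 140.4, 153 and 148 after S100A9 and 149, 153 and 143 after S100A8/S100A9. Its groups overlapped throughout, with differences from control of 0.010, −0.003 and 0.009.

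CENPA, the centromeric histone H3 variant, had 24.4 ± 1.53 CPM after S100A9 and 28.02 ± 1.68 after S100A8/S100A9, which did not overlap and differed by 0.20 (95% interval 0.052 to 0.35, adjusted p = 0.542). CENPF, a large kinetochore protein, had 495 ± 5.02 CPM in control, and lay 0.050 higher after S100A8 and 0.039 higher after S100A8/S100A9 on the log2 scale, with no overlap in either. CENPE gave 0.12 and 0.13 with overlap. BIRC5 and CDCA8 encode survivin and borealin of the passenger complex, and they differed by 0.13 and 0.018 after S100A8. All 8 kinetochore and checkpoint genes lay above 0 after S100A8 and after S100A8/S100A9, with medians of 0.079 and 0.065, and 4 of 8 after S100A9.

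All 9 kinesin motor genes lay above 0 after S100A8 (median 0.089), 7 of 9 after S100A8/S100A9 and 5 of 9 after S100A9. KIF2C, which shortens microtubules at kinetochores, was at 83.2, 85.3 and 81.5 CPM in control libraries 1 to 3, 85.99, 94.6 and 85.3 after S100A8, 86.9, 91.2 and 87.02 after S100A9 and 86.9, 88.1 and 87.2 after S100A8/S100A9. Every treated library of all 3 arms exceeded every control library, by as little as 85.30 against 85.29 CPM for S100A8 3 and control 2, and the intervals included 0 in each arm, with 0.085 (95% interval −0.012 to 0.18, adjusted p = 0.863) after S100A9. KIF11, the motor that pushes spindle poles apart, was at 118, 127 and 112 CPM in control libraries 1 to 3, 122, 126 and 119 after S100A8, 121, 119.7 and 108 after S100A9 and 116, 121 and 119 after S100A8/S100A9, with overlap in all 6 comparisons. KIF20A and KIF23, motors of the central spindle, had differences of 0.15 and 0.14 after S100A8 and 0.20 and 0.064 after S100A8/S100A9. KIF14, a motor needed for cytokinesis, gave 0.13 and 0.11, with no overlap with control in either group. KIF18A, which damps chromosome movement at the plate, gave 0.080, −0.057 and 0.067 from control after S100A8, S100A9 and S100A8/S100A9, without overlap in the last. KIF4A, a chromosome-bound motor, gave 0.091, 0.013 and 0.035, and KIF15 0.024, −0.022 and −0.020, all with overlap.

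DLGAP5 and CKAP2L had the smallest unadjusted p of the 48 genes between S100A8/S100A9 and control. DLGAP5, which stabilises kinetochore fibres, was at 70.9, 70.3 and 66.4 CPM in control libraries 1 to 3, 75.4, 77.2 and 70.9 after S100A8, 75.3, 69.4 and 70.3 after S100A9 and 77.6, 81.4 and 78.6 after S100A8/S100A9. The 3 S100A8/S100A9 libraries exceeded the other 9. The difference from control was 0.20 (95% interval 0.091 to 0.30, adjusted p = 0.63). CKAP2L, a spindle protein, was at 54.8, 58.8 and 54.5 CPM in control libraries 1 to 3, 65.3, 61.2 and 61.5 after S100A8, 63.9, 60.96 and 62.9 after S100A9 and 65.9, 61.9 and 63.8 after S100A8/S100A9. All 9 treated libraries exceeded all 3 controls, with 0.16 (95% interval 0.054 to 0.27, adjusted p = 1) after S100A8, 0.16 (95% interval 0.053 to 0.27, adjusted p = 0.488) after S100A9 and 0.19 (95% interval 0.085 to 0.30, adjusted p = 0.63) after S100A8/S100A9.

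ASPM, a protein of spindle poles, was at 212, 209.6 and 195 CPM in control libraries 1 to 3, 233, 213 and 209 after S100A8, 197, 191 and 193 after S100A9 and 203, 223 and 229.9 after S100A8/S100A9. S100A9 lay below both other treated groups with no overlap. The difference was −0.17 (95% interval −0.27 to −0.073, adjusted p = 0.262) against S100A8, and S100A8/S100A9 against S100A9 gave 0.17 (95% interval 0.074 to 0.27, adjusted p = 0.269). TPX2 was at 423, 437 and 429 CPM in control libraries 1 to 3, 426, 486 and 459 after S100A8, 429, 469 and 441 after S100A9 and 452, 458 and 435 after S100A8/S100A9. FAM83D, which brings a casein kinase to the spindle, was at 46.3, 52.7 and 44.1 CPM in control libraries 1 to 3, 46.5, 48.9 and 46.6 after S100A8, 44.6, 50.00 and 42.4 after S100A9 and 48.4, 48.6 and 46.6 after S100A8/S100A9. Both TPX2 and FAM83D overlapped in all 6 comparisons. NUSAP1, a microtubule bundler, differed by 0.11 and 0.11 from control after S100A8 and S100A8/S100A9, with no overlap. HMMR, a spindle protein that is also a hyaluronan receptor, differed by 0.13 and 0.14 in those comparisons, GTSE1, a microtubule-binding protein of G2, by 0.14 and 0.18, and CKAP2 by 0.036 and 0.069. Of these, GTSE1 after S100A8/S100A9 did not overlap control. Of the 9 spindle genes, 8, 6 and 9 lay above 0 after S100A8, S100A9 and S100A8/S100A9.

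PTTG1 encodes securin, which holds back the protease that separates sister chromatids, and it had the largest difference from control of the 48 genes after S100A8 and after S100A8/S100A9. It was at 31.7, 33.9 and 34.3 CPM in control libraries 1 to 3, 40.5, 38.1 and 43.1 after S100A8, 37.7, 34.9 and 35.2 after S100A9 and 40.6, 40.1 and 36.96 after S100A8/S100A9. All 9 treated libraries exceeded all 3 controls, and S100A8 also exceeded S100A9. The differences from control were 0.29 (95% interval 0.15 to 0.42, adjusted p = 1) for S100A8, 0.11 (95% interval −0.026 to 0.24, adjusted p = 0.887) for S100A9 and 0.24 (95% interval 0.10 to 0.37, adjusted p = 0.63) for S100A8/S100A9. PTTG2, a near copy, was at 0 to 0.170 CPM and was not tested. CDC20, which activates the anaphase-promoting complex, differed by 0.12, 0.005 and 0.15 from control, and UBE2C by 0.11, 0.027 and 0.045. CDCA3, a trigger of mitotic entry, differed by 0.015, −0.046 and 0.059, with overlap in each.

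On chromosomes, MKI67 was at 575, 591 and 585 CPM in control libraries 1 to 3, 614, 681 and 629.7 after S100A8, 609, 635 and 609 after S100A9 and 642, 636 and 605 after S100A8/S100A9. All 9 treated libraries exceeded the 3 controls, with 0.14 (95% interval 0.058 to 0.22, adjusted p = 1) after S100A8, 0.082 (95% interval 0.002 to 0.16, adjusted p = 0.833) after S100A9 and 0.11 (95% interval 0.025 to 0.18, adjusted p = 0.829) after S100A8/S100A9. TOP2A was at 536, 526 and 528 CPM in control libraries 1 to 3, 544, 570.0 and 561 after S100A8, 537, 521 and 525 after S100A9 and 574, 563 and 566 after S100A8/S100A9. S100A8 and S100A8/S100A9 each lay above control and above S100A9 with no overlap, while S100A9 and control overlapped. TOP2A differed from control by 0.077 (95% interval 0.008 to 0.15, adjusted p = 1) after S100A8, −0.005 (95% interval −0.074 to 0.063, adjusted p = 0.991) after S100A9 and 0.10 (95% interval 0.031 to 0.17, adjusted p = 0.769) after S100A8/S100A9. Of the cytokinesis genes, ANLN, which encodes the ring scaffold anillin, gave 0.084, 0.058 and 0.12. ECT2, an activator of RhoA at the cleavage furrow, gave −0.007, −0.091 and 0.055, and PRC1, a bundler of the spindle midzone, 0.078, 0.034 and 0.047.

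**Figure D4:**
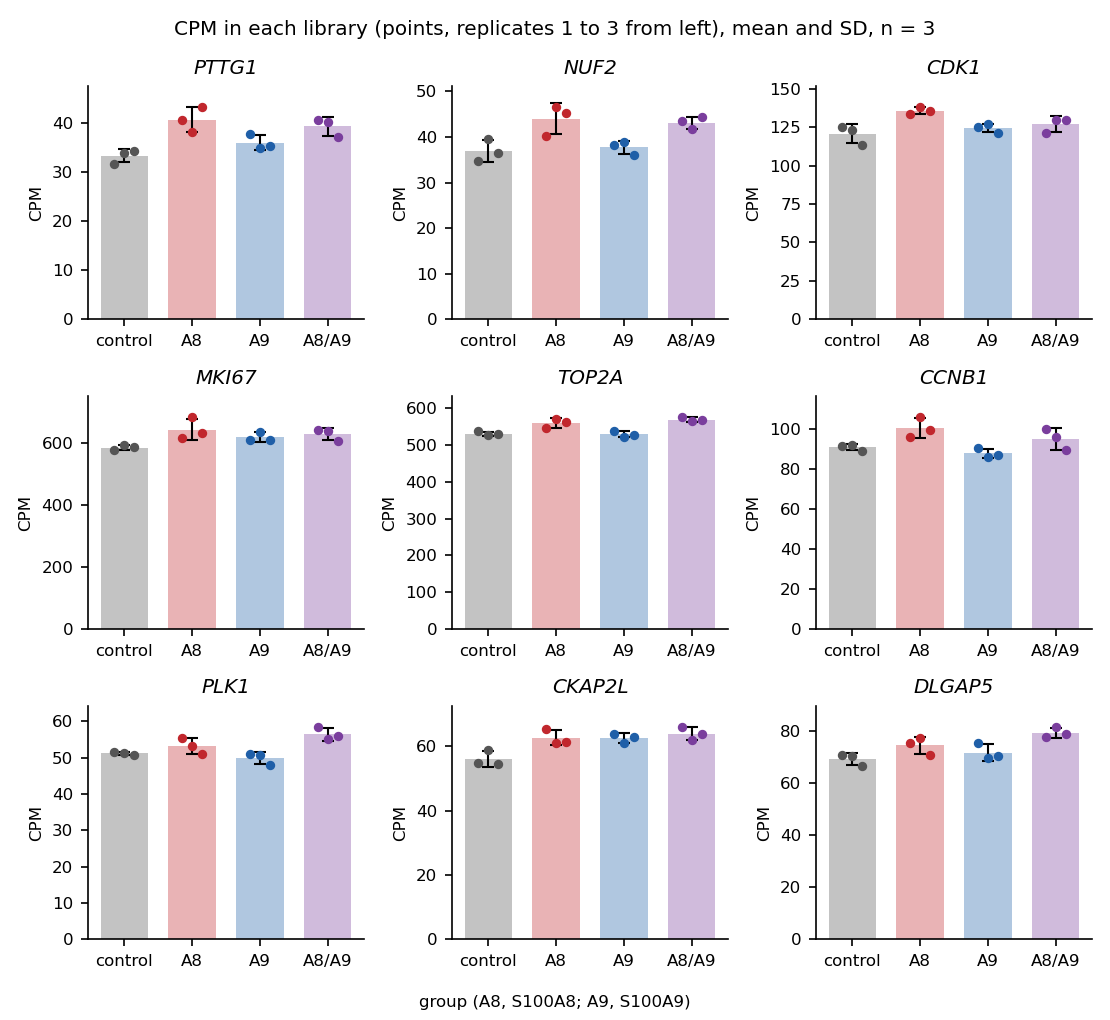
Bars are group means and error bars the SD of CPM over 3 libraries for 9 of the 48 genes, with points for single libraries and axes from 0. PTTG1, MKI67 and CKAP2L have all 9 treated points above the controls, whereas for DLGAP5 only the S100A8/S100A9 points stand above the rest and for CDK1 only those of S100A8.

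The genes were then compared by replicate number. With group kept in the model, replicate 2 against 1 gave 2 of 48 genes past the threshold, against 4.22% of all genes (570 of 13512), a share near that of all genes. CDC25B fell by 0.13 in log2 units (95% interval −0.20 to −0.062, adjusted p = 0.0208 in edgeR), and NEK2 rose by 0.17 (95% interval 0.071 to 0.27, adjusted p = 0.0405). In limma 0 of the 48 were called, CDC25B alone was called in DESeq2, and leaving out single libraries gave 0 genes (without control 2, S100A9 1, S100A9 2 or S100A8/S100A9 2), 1 (without control 1) or up to 3 (without S100A8/S100A9 1, where NEK2 and TPX2 passed and CDC25B did not). The 4 libraries of each number did not overlap for 2 genes higher and 1 lower, against 4.46% and 4.44% of all genes, and 6 were higher and 2 lower at an unadjusted p under 0.05, against 8.9% and 8.91%. In every group, replicate 2 was below replicate 1 for CDC25B and above it for NEK2. TPX2 stood at 0.10 (95% interval 0.035 to 0.16, adjusted p = 0.062) in the same comparison. In all, 27 of 48 genes lay above 0 (50.2% of all tested genes), and by group the count was 28 in control, 35 after S100A8, 18 after S100A9 and 24 after S100A8/S100A9.

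Replicate 3 lay below replicate 1 for 37 of 48 genes (median −0.033) and below replicate 2 for 40 (median −0.041), while all genes split at 50.4% and 49.9% above 0. By group, replicate 3 exceeded replicate 1 for 12 genes in control, 25 after S100A8, 10 after S100A9 and 20 after S100A8/S100A9. After S100A8 the median was 0.012, so the groups did not share this shift evenly. Replicate 3 exceeded replicate 2 for 12, 11, 19 and 18 genes in the same order of groups. In edgeR 0 of the 48 passed in either comparison, against 0.0148% and 0.562% of all genes, with 3 and 12 lower at an unadjusted p under 0.05 (background 2.91% and 4.84%), and DESeq2 (0 and 5 at that level) and limma (2 and 4) also passed 0. TTK, at −0.11 (95% interval −0.21 to −0.018, adjusted p = 0.761), and BUB1B, at −0.10 (95% interval −0.18 to −0.009, adjusted p = 0.836), led for replicate 3 against 1. FAM83D, at −0.16 (95% interval −0.25 to −0.059, adjusted p = 0.162), KIF11, at −0.11 (95% interval −0.18 to −0.030, adjusted p = 0.253), and BUB3, at −0.089 (95% interval −0.16 to −0.018, adjusted p = 0.338), led for replicate 3 against 2, and all 4 libraries numbered 3 were below all 4 numbered 2 for each of these. Groups of 4 libraries did not overlap for 2 genes lower (BUB1B and CDC25B) in the first comparison and 3 lower in the second, against 1.17% and 2.42% of all genes. The labels do not say what a replicate number stands for.

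Held within a replicate number, the S100A8 library exceeded the control library of the same number for 41, 36 and 44 of 48 genes in numbers 1, 2 and 3. For S100A8/S100A9 against control the counts were 37, 35 and 42, and for S100A9 against control 27, 15 and 29. S100A9 was below S100A8 for 38, 45 and 40 genes, and S100A8/S100A9 above S100A9 for 37, 39 and 39. S100A8/S100A9 exceeded S100A8 for 30, 21 and 23 genes. Over all tested genes, the share above 0 in these pairs of libraries was 48.7% to 52.4%.

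The variance of each gene's log2 CPM over the 12 libraries was divided between group, replicate number and neither. Group took a median of 47.8% for the 48 genes, against 25.8% for all tested genes, where its share of the degrees of freedom is 27.3%. Replicate number took 14.9% against 18.5% (18.2% of the degrees of freedom). Group took over 50% of the variance for 24 of the 48 genes and for 13.7% of all tested genes. TOP2A (85.8%), PTTG1 (78.0%), CKAP2L (77.6%) and PLK1 (76.3%) were divided most by group, and CDC25B (70.1%), FAM83D (64.1%), NEK2 (51.0%) and BUB3 (51.0%) most by replicate number. KIF20B, a kinesin of late mitosis, followed neither, with 90.7% left over. These shares are descriptions, since the genes share libraries.

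**Figure D5:**
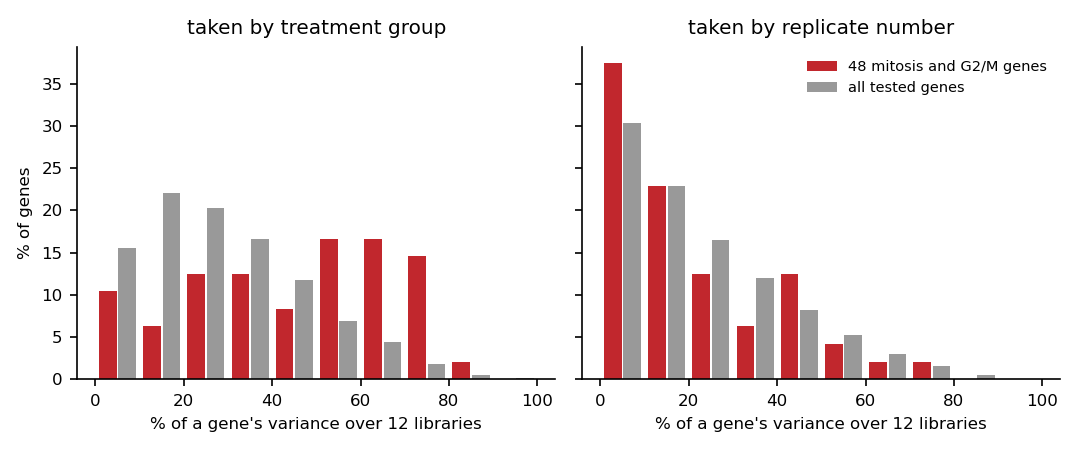
Bars give the percentage of genes, among the 48 (red) and among all 13512 tested genes (grey), by the percentage of a gene's variance over 12 libraries that treatment group (left) or replicate number (right) took, in steps of 10%. On the left more of the red lies at high shares, with 24 of 48 genes above 50% against 13.7% of all tested genes. On the right the red and grey bars are both tallest in the first step.

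A separate list held 42 other kinetochore, spindle and late-cycle genes. After S100A8, 38 lay above control (median 0.060), after S100A8/S100A9 37 (0.044) and after S100A9 25 (0.010), and 0 passed edgeR's test in any of these, with 6, 2 and 1 of 42 higher at an unadjusted p under 0.05, against 1.74%, 2.65% and 3.23% of all genes. Group took a median of 29% of their variance. Of 38 S phase genes, 20, 27 and 24 lay above control after S100A8, S100A9 and S100A8/S100A9 (medians 0.001, 0.041 and 0.010), and 0 passed. Group took 25.8% of their variance. Condensin and cohesin genes, 17 in all, had 11, 6 and 14 above 0, and the 17 subunits and cofactors of the anaphase-promoting complex 10, 7 and 10, with 0 past the threshold.

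FOXM1 and MYBL2 act on these promoters, and cyclin D1 and p21 act earlier in the cycle. FOXM1, the late-cycle activator, had 225 ± 12.5 CPM in control, 227 ± 9.20 after S100A8, 235 ± 8.69 after S100A9 and 241 ± 12.97 after S100A8/S100A9, with log2 differences of 0.009, 0.065 and 0.10. MYBL2, which takes part in activating such genes in G2, differed by 0.009, 0.003 and 0.075, and its libraries cleared the controls after S100A8/S100A9. CDKN1A, which encodes the CDK inhibitor p21, was at 244, 273 and 261 CPM in control and 217, 233 and 238 after S100A8/S100A9. These did not overlap, and the difference was −0.18 (95% interval −0.42 to 0.059, adjusted p = 0.898). In the other arms CDKN1A fell less, as no regulator of the 28 lay below −0.094 after S100A8 or −0.071 after S100A9. CCND1, the cyclin D1 gene of G1, differed by 0.087, 0.13 and 0.13, and PCNA, the sliding clamp of replication, by −0.034, 0.015 and −0.002. Of the 28 regulators 0 passed in the 6 comparisons between groups. In replicate 2 against 1, 3 of the 28 rose and 2 fell, against 4.22% of all genes called in either direction. CDKN1A, RBL1 and E2F7, a repressor of the E2F family named here after its value was seen, rose, by 0.23, 0.22 and 0.14, and CCND1 and FOXM1 fell, at −0.13 and −0.12 (adjusted p = 0.000164, 0.00197, 0.0429, 0.0118 and 0.0239 in edgeR).

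Differences were also set beside the promoter letters. Of the 48, genes with a CHR match had a median log2 difference of 0.083 after S100A8 (32 genes) and those without 0.10 (9 genes). After S100A8/S100A9 the order was the other way, with 0.084 and 0.068. Outside the 48, 678 tested genes with both CCAAT and CHR letters had a median of 0.005, with 52.7% above 0. After S100A8/S100A9 the same 678 genes had a median of 0.004, with 52.1% above 0. In the S100A9 and S100A8/S100A9 arms all 13 genes encoded by mitochondrial DNA lay above control (medians 0.10 and 0.11), and 6 of 13 did after S100A8. The part of this shift in the results was not tested.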

How the data were processed

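RNA of 12 HK-2 libraries in 4 groups of 3 was sequenced by the authors on an Illumina instrument after oligo(dT) selection, per the labels. The authors deposited 1 table with an expected count (an estimated count, 12.0% of entries not whole) and an FPKM value for each gene and library, per the file headers. No aligner, counter or annotation is named in the labels or the header. Builds GRCm38 and mm10, both of mouse, are what the submitters' processing notes list, although the IDs are human Ensembl IDs. Of 20286 IDs, 20228 were named from a table of gene names and 50 from GENCODE 29, and 8 stayed unnamed.

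Rounded counts went into edgeR 4.0.16 under R 4.3.3 (filterByExpr with a minimum count of 10, TMM, robust quasi-likelihood fit, two-sided, Benjamini-Hochberg over 13512 genes, threshold 0.05). The fit used all 12 libraries with 1 coefficient a group and no block (8 residual degrees of freedom, common biological variation 4.65%). Replicate numbers were compared in a fit with group as covariate (6 residual degrees of freedom). Log2 CPM had a prior count of 2. Overlap of groups was judged on CPM. Alternatives were DESeq2 size factors and library totals for scaling, no filter, the DESeq2 1.42.0 Wald test, no robust option, a replicate block, only the 6 libraries compared, no group term, limma 3.58.1 on log2(FPKM + 1) and leaving out each library. The pipeline was tested on simulated data. Totals were 15882193 to 20748334 counts, and 3 counts correspond to 0.145 to 0.189 CPM; Wilson intervals cover counting only.

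Groups were taken from the labels. The 48 genes and all lists were chosen with earlier results of these data known. Values in each library are given for MKI67, TOP2A, CDK1, CCNB1, PLK1, PTTG1 and the 3 genes of the 48 with the smallest unadjusted p in each comparison. From other lists come some of the genes past the threshold, FOXM1, MYBL2, CDKN1A, CCND1, PCNA and near copies. In the comparisons of replicate numbers, genes past it from the tubule, fibroblast and leukocyte markers and 1 S phase gene are not named. Other genes of the 48 are described by their values or counts.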

Additional observations from a re-analysis of the deposited data

How the results depend on the processing

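Median log2 differences of the 48 genes, and their counts above or below 0, each moved by less than the spread between libraries (medians) or 1.5 times (counts) in 60 of 60 fits that left out a library and 69 of 69 others. The levels by library and variance shares did so in 108 of 108 and 27 of 27. The median after S100A9, and that of S100A8/S100A9 against S100A8, lay near 0 and took either sign. Counts of genes past the threshold moved more. The DESeq2 Wald test called 1 gene for S100A8/S100A9 against control, 2 against S100A8 and 338 for replicate 2 against 1, where 1 of the 48 passed. Without the robust option, S100A8 against control gave 0 genes, replicate 3 against 2 gave 48, and 1 of the 48 passed for replicate 2 against 1. With the replicate block the counts were 2 (S100A8), 42 (S100A9) and 2 (S100A8/S100A9) against control, 69 for S100A9 against S100A8 and 71 for S100A8/S100A9 against S100A9. Under the block 1 of the 48, CCNB1, passed for S100A9 against S100A8 (adjusted p = 0.0437, and up to 0.589 over the other alternatives that left out no single library). Same-numbered libraries correlated at −0.07 to 0.15 in their deviations from group means, and differently numbered ones at −0.16 to 0.10. The main fit did not take the numbers as pairs, since the labels state no covariate. Such weak correlations do not show that same-numbered libraries share nothing, as replicate 2 against 1 passed 570 of 13512 genes in edgeR. Fits on only the 6 libraries compared gave 0 genes for S100A8 and 2 for S100A8/S100A9 against control. With no filter, replicate 3 against 1 gave 13 genes. With no group term it gave 0, replicate 3 against 2 gave 15, and 1 of the 48 passed for replicate 2 against 1. In limma the counts were 0 (S100A8) and 11 (S100A9) against control, 9 for S100A9 against S100A8, 10 for S100A8/S100A9 against S100A9, 53, 0 and 0 for replicates 2 against 1, 3 against 1 and 3 against 2, and 0 of the 48 for replicate 2 against 1.

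Leaving out each library in turn gave 0 to 2 genes for S100A8, 11 to 22 for S100A9 and 0 to 2 for S100A8/S100A9 against control, 14 to 24 for S100A9 against S100A8 and 14 to 31 for S100A8/S100A9 against S100A9. For replicates it gave 244 to 718 (2 against 1), 1 to 40 (3 against 1) and 22 to 75 (3 against 2), and 0 to 3 of the 48 for 2 against 1. In the 6 comparisons between groups, 0 of the 48 passed in any of these fits. A group cut to 2 libraries was assumed to vary like the rest. For replicate 2 against 1, CDC25B missed the threshold in 6 of 8 such fits and NEK2 in 6 of 8. The cause of these changes was not tested. With TTTGAA alone as the CHR, 73.2% of the genes had a match. Differences under about 0.11 on the log2 scale are below the median interval of a single gene.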

Other observations

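RRM2, a subunit of ribonucleotide reductase, stood 0.13 above control after S100A9 and rose by 0.13 (95% interval 0.074 to 0.19, adjusted p = 0.00518) in replicate 2 against 1 in edgeR. In that comparison 1 of the 38 S phase genes passed higher and 1 lower, against 4.22% of all genes in either direction. The lowest adjusted p of the 38 in edgeR was 0.00294, smaller than that of RRM2. CKS2, a partner of CDK1, had differences of 0.15, 0.11 and 0.13 from control after S100A8, S100A9 and S100A8/S100A9, and UBE2S, the second ubiquitin-conjugating enzyme of the anaphase-promoting complex, 0.13, 0.068 and 0.093. These genes were chosen after their values were seen.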
